A study of Homo sapiens with 10 samples.

Results

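The NF-κB transcription factors are encoded by 5 genes, NFKB1, NFKB2, RELA, RELB, and REL. The regions around these genes were examined for binding of the NF-κB subunit NFKB1, of STAT3, and of 3 AP-1 subunits (FOS, JUN, and JUNB). No other NF-κB subunit was precipitated. The peaks were selected by position, as those in 5 windows on the hg19 build: chr4:103390000-103560000 for NFKB1 (170 kb), chr10:104135000-104180000 for NFKB2 (45 kb), chr11:65400000-65450000 for RELA (50 kb), chr19:45480000-45560000 for RELB (80 kb), and chr2:61080000-61180000 for REL (100 kb). A peak belongs to a locus when its summit lies in the window. Of the 879550 peaks that 10 lists hold on chromosomes 1 to 22 and X, 246 are at these loci: 116 at NFKB1, 46 at NFKB2, 44 at REL, 21 at RELB, and 19 at RELA. The windows are wider than the genes and can hold regulatory regions of other genes. In RefSeq order the nearest protein-coding neighbours are SLC39A8 and MANBA for NFKB1, GBF1 and PSD for NFKB2, SIPA1 and KAT5 for RELA, CLPTM1 and CLASRP for RELB, and PAPOLG and PUS10 for REL.

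The lists come from ChIP-seq (sequencing of the DNA precipitated with an antibody) in MCF10A-ER-Src cells, a non-tumorigenic human mammary epithelial line that carries the v-Src oncoprotein fused to the tamoxifen-responsive part of the estrogen receptor. Each of the 5 proteins has 1 library from non-transformed cells (EtOH, ethanol) and 1 from cells transformed for 12 h with 1 μM 4-hydroxy-tamoxifen (TAM), so all 10 libraries share the ER-Src transgene and no value below has a replicate. Names of the libraries in the list headers carry 36 h for EtOH and 12 h for TAM, so treatment and time in culture cannot be told apart. Because the gene NFKB1 is also the name of a precipitated protein, "NFKB1 protein" denotes the ChIP target and "NFKB1 locus" the window around the gene.

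NF-κB proteins bind DNA as dimers at κB sites. NFKB1 and NFKB2 encode precursors that are processed to subunits without a transactivation domain, whereas RELA, RELB, and REL encode subunits that have one. Inhibitor proteins keep the dimers in the cytoplasm until a signal, such as an inflammatory cytokine, releases them, and the subunit genes are among those that NF-κB can itself regulate. AP-1 is a dimer of FOS and JUN family proteins that responds to growth factor signals, and STAT3 is activated by cytokines of the IL-6 family and by Src.

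The reference promoters of the subunit genes show where κB letters occur beside these genes. RefSeq (GRCh38.p14) has 8 promoters for 4 of the genes (2 for NFKB1, 3 for NFKB2, 2 for RELA, and 1 for REL), each with 250 bases before and 50 after the start of transcription. RELB has no entry in that table. The κB consensus, searched on both strands, is in 4 of the 8, with 1 match in a promoter of NFKB1, 3 and 2 matches in 2 promoters of NFKB2, and 2 overlapping matches for REL. Over all 35116 human promoters of the same length, 5.91% hold a match. The AP-1 motif TGANTCA is in 0 of the 8 (7.71% of all promoters) and the STAT motif TTCNNNGAA in 1 of the 8, a RELA promoter (7.66%). The stretches with the κB matches are printed 5′ to 3′, all on the plus strand, with the matched bases in capitals and up to 40 bases on each side. They are shown because the highest peaks of the NFKB1 protein at these loci are in the windows of 2 of these genes.
NFKB1, chr4:102501270-102501358 (GRCh38.p14): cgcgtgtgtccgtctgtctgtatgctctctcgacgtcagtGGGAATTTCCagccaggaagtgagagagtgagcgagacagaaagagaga
NFKB2, chr10:102394431-102394549 (GRCh38.p14): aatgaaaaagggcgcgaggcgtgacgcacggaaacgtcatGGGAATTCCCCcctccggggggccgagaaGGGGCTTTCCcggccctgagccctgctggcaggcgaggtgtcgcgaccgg
NFKB2, chr10:102395489-102395704 (GRCh38.p14): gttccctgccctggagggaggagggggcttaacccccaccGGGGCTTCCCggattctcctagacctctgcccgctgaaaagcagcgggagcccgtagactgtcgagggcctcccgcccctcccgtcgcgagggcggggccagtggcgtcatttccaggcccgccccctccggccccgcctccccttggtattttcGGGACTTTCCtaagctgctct
REL, chr2:60881487-60881573 (GRCh38.p14): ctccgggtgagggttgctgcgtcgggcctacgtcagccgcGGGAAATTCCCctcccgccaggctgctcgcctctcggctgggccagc
The first NFKB2 stretch has 2 matches that overlap (its longer run of capitals) and a separate one, and the REL run is 2 overlapping matches. The peak lists are on hg19 and the promoters on GRCh38.p14, and positions were not converted, so no peak was placed on these sequences. A match describes letters and is not evidence of a bound site.

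The loci held 84 peaks in non-transformed and 162 in transformed cells, a ratio of 1.93, and the whole lists 332509 and 547041, a ratio of 1.65. By locus, the number of peaks went from 36 to 80 at NFKB1, from 16 to 30 at NFKB2, from 9 to 10 at RELA, from 8 to 13 at RELB, and from 15 to 29 at REL. RELA therefore had nearly the same number of peaks in both states. FOS had 27 and 48 peaks (non-transformed and transformed), JUN 23 and 42, STAT3 8 and 23, JUNB 14 and 24, and the NFKB1 protein 12 and 25. Of the NFKB1 protein peaks, 9 and 6 had at least 2 pileup reads per 1000000, so the order of the states was reversed among the higher peaks at the loci. The transformed library was 2.0 times as deep, so this threshold stands for more reads there. Peaks past this threshold were not counted over the whole lists, so the reversal cannot be called particular to the loci. JUNB had no listed peak at RELA or RELB in either state, and STAT3 had none at REL in non-transformed cells. Every other list had at least 1 peak at each locus. The plot of peak counts shows that FOS (13 to 23) and JUN (8 to 22) make up most of the difference at NFKB1, and that the largest single part at REL is FOS, from 5 to 12, whereas JUN went from 5 to 3 there.

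**Figure D1:**
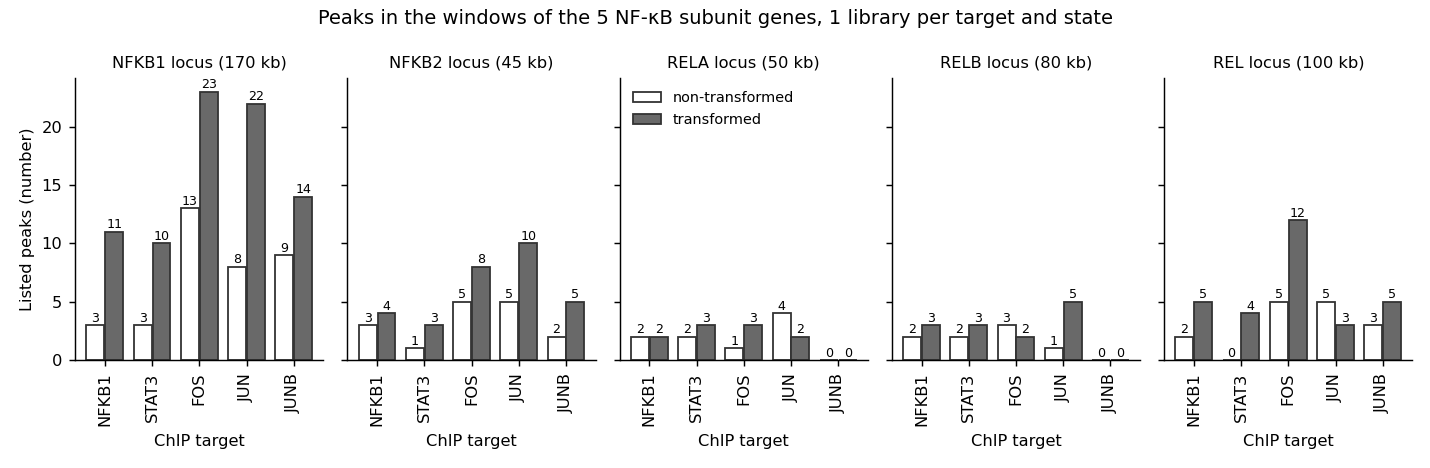
Number of listed peaks (y axis) for each ChIP target (x axis) in the window of each gene, with open bars for non-transformed and filled bars for transformed cells, 1 library per bar. The NFKB1 locus holds 23 FOS and 22 JUN peaks in transformed cells, and JUNB has 0 peaks at RELA and RELB.

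Counts of peaks depend on depth. The libraries held 4837474 to 22082403 reads after the authors' filter, and the NFKB1 protein library of transformed cells had 2.0 times the reads of the other state (1.72 times for JUNB, 0.82 times for STAT3). For the NFKB1 protein the density at the loci was 2.70 peaks per 100 kb against 0.491 over the genome in non-transformed cells, and 5.62 against 2.73 in transformed cells. STAT3 had 1.80 against 1.59 and 5.17 against 2.97, FOS 6.07 against 4.44 and 10.8 against 6.10, JUN 5.17 against 3.02 and 9.44 against 4.72, and JUNB 3.15 against 2.79 and 5.39 against 3.74. Each of the 10 lists was denser at these gene windows than over the genome, most so the NFKB1 protein in non-transformed cells (5.49 times). The genome value includes regions without genes and was taken over an effective size of 2700000000 bp, so a ratio above 1 is a description of gene-containing windows and was not tested.

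The highest peaks of the NFKB1 protein were at NFKB2 and NFKB1, and both were present before transformation. A peak's height is given as the pileup, that is, how many extended reads cover the summit, not scaled for depth. Its fold enrichment is the ratio of the pileup to the background that MACS, the peak caller, estimated in the same library. At NFKB2, the pileup was 55 in non-transformed and 66 in transformed cells, with fold enrichments of 44.9 and 44.7 and summits 4 bp apart (104154242 and 104154246). By fold enrichment these peaks ranked 117 of the 13252 and 369 of the 73822 NFKB1 protein peaks. At NFKB1, the highest peak was 56.5 kb from the first base of the window, with a pileup of 48 and then 73, fold enrichments of 38.1 and 46.0, and ranks of 201 and 329. RELB followed with a pileup of 20 and then 28 (fold enrichment 16.9 and 20.3, ranks 1400 and 4029). RELA had a pileup of 13 and 12 (fold enrichment 11.2 and 8.72, ranks 2966 and 22927). At REL the highest peak of the NFKB1 protein changed position, from a pileup of 12 at 61108666 (fold enrichment 10.5, rank 3138) in non-transformed cells to a pileup of 13 at 61176255 (fold enrichment 9.79, rank 17679) in transformed cells. Ordered by height within a library, NFKB2 and NFKB1 did not differ beyond counting error (pileup ratio 1.15, exact 95% interval 0.764 to 1.72, in non-transformed cells, and NFKB1 over NFKB2 1.11, 0.782 to 1.57, in transformed cells). The lower of this pair stood above RELB by 2.40 times (1.40 to 4.27) and 2.36 times (1.49 to 3.81), respectively. RELB stood above the next locus by more than counting error in transformed cells (2.15 times REL, 1.08 to 4.53). It did not in non-transformed cells (1.54 times RELA, 0.728 to 3.37), and RELA and REL did not differ beyond counting error in either. Each of these peaks is the highest of its window, and the loci were ordered by the same heights. The intervals do not take that choice into account.

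**Figure D2:**
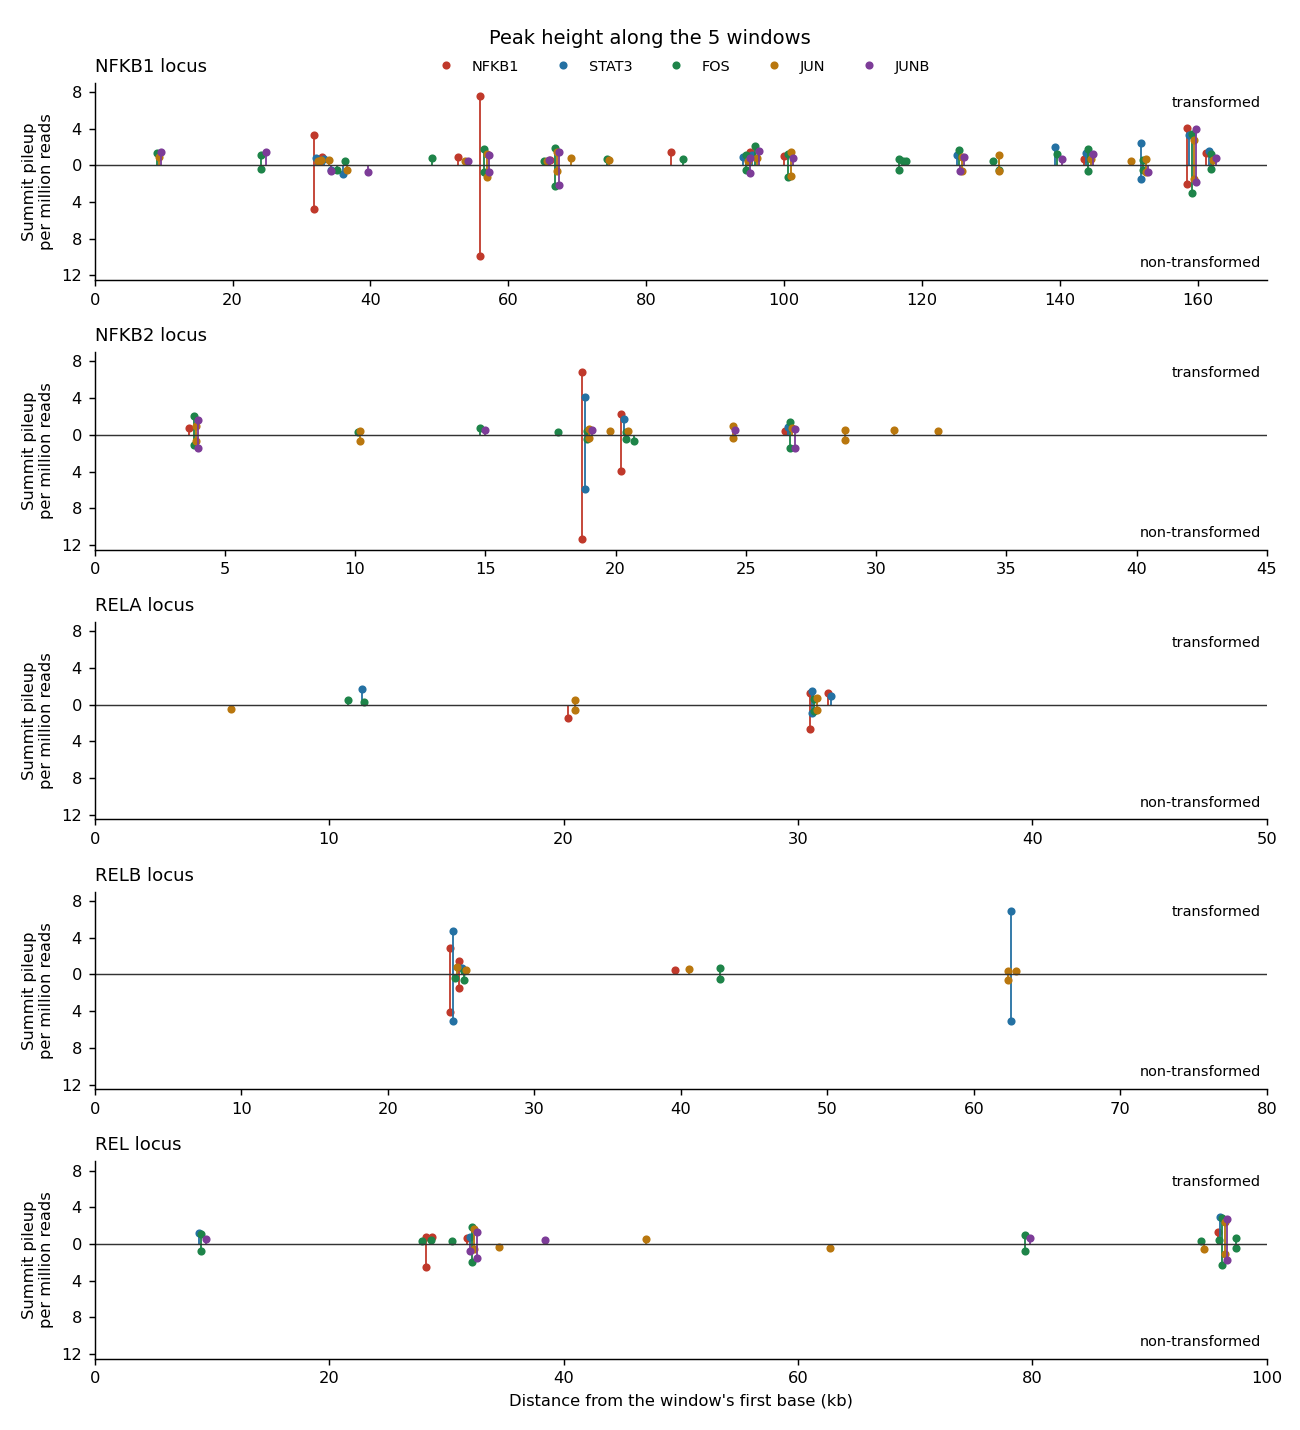
Summit pileup per 1000000 filtered reads (y axis, drawn upward for transformed and downward for non-transformed cells) along each window in kb from its first base (x axis), 1 colour per ChIP target, with the targets of a site moved slightly sideways for display and the peak of highest fold enrichment drawn where a site has more than 1. The NFKB1 protein reaches 11.4 and 6.82 at NFKB2, STAT3 stands at 5.03 and 6.91 at 62.7 kb of RELB, and the highest AP-1 peaks of the REL window are at 32.2 and 96.2 kb.

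Overlapping peak windows (the summit with 150 bp on each side) from the 10 lists merged into 77 sites at the loci: 35 at NFKB1, 16 at REL, 13 at NFKB2, 7 at RELB, and 6 at RELA. Of these, 32 sites were in 1 list, 17 in at least 6 lists, 6 in at least 8, and 0 in all 10. Peaks of both states were at 36 sites, peaks of transformed cells alone at 31, and peaks of non-transformed cells alone at 10. These splits were not counted over the genome, so they describe the loci alone. Sites with any peak of non-transformed and of transformed cells numbered 46 and 67 at the loci. Over the genome they numbered 162858 and 211617. The 3 sites held by most lists were described at each locus, and the heat map gives the pileup of every list at these sites. Pileups of different antibodies are not on a common scale, so the comparisons below are between the states of 1 protein.

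**Figure D3:**
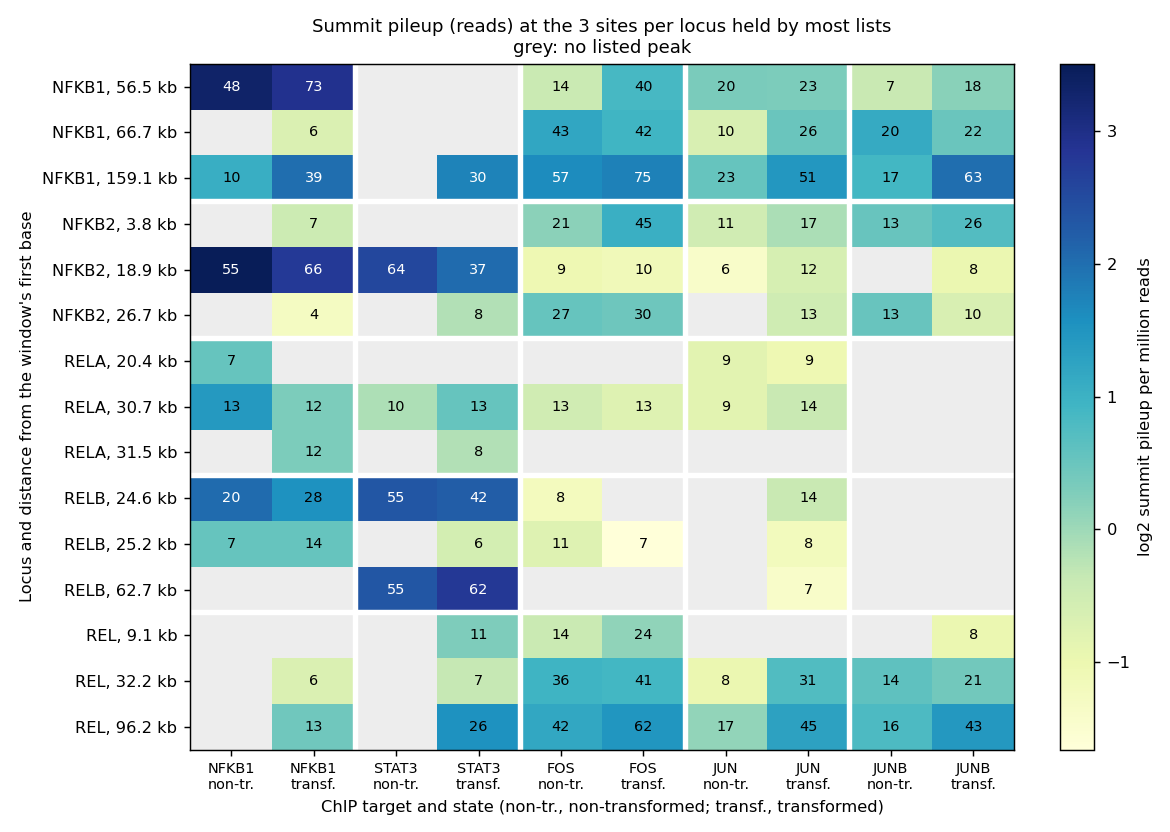
Summit pileup in reads (numbers) for each ChIP target and state (columns) at the 3 sites per locus held by most lists (rows, named by locus and distance from the window's first base), coloured by the log2 of the pileup per 1000000 filtered reads, with grey where no peak is listed. The NFKB1 protein columns are darkest at 56.5 kb of NFKB1 and 18.9 kb of NFKB2, and the AP-1 columns of transformed cells at 159.1 kb of NFKB1 and 96.2 kb of REL.

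At the NFKB1 locus, the site at 159.1 kb (chr4:103548922-103549318) was in 9 lists and had high AP-1 peaks in both states. Its pileup in non-transformed and transformed cells was 57 and 75 for FOS, 23 and 51 for JUN, 17 and 63 for JUNB, and 10 and 39 for the NFKB1 protein. STAT3 had no listed peak there in non-transformed cells and a pileup of 30 in transformed cells. The site at 56.5 kb (chr4:103446263-103446641) was in 8 lists, without STAT3 in either state. It combined the highest NFKB1 protein peak of the locus with a FOS pileup of 14 and 40, a JUN pileup of 20 and 23, and a JUNB pileup of 7 and 18. The third site, at 66.7 kb (chr4:103456554-103457339), was in 7 lists and was mainly an AP-1 site, with 43 and 42 for FOS, 10 and 26 for JUN, and 20 and 22 for JUNB. STAT3 was not listed there, and the NFKB1 protein had a pileup of 6, in transformed cells alone. FOS has 2 neighbouring summits within this site.

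At NFKB2, the site at 18.9 kb (chr10:104153626-104154400) was in 9 lists, and here the NFKB1 protein and STAT3 were high and AP-1 low. The NFKB1 protein peak is the one described above, and STAT3 had a pileup of 64 in non-transformed and 37 in transformed cells (fold enrichment 40.4 and 25.0). FOS had 9 and 10, JUN 6 and 12, and JUNB 8 in transformed cells alone. The summits of the NFKB1 protein and of STAT3 were 351 bp apart in non-transformed and 367 bp apart in transformed cells. Their windows do not overlap, and the site was joined through an AP-1 peak that lies between them, so these highest peaks are adjacent rather than coincident. A low NFKB1 protein peak, with a pileup of 5, lay on the STAT3 side in non-transformed cells alone. The sites at 3.8 kb (chr10:104138652-104138988) and 26.7 kb (chr10:104161524-104161923) were each in 7 lists. FOS had a pileup of 21 and 45 at the first and 27 and 30 at the second. JUNB had 13 and 26 at the first and 13 and 10 at the second, and JUN 11 and 17 at the first and 13 in transformed cells alone at the second. The NFKB1 protein was listed at both in transformed cells alone, with pileups of 7 and 4, and the latter is the lowest NFKB1 protein peak at the loci.

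RELA, the gene of a broadly expressed transactivating subunit, had low peaks. Its main site, at 30.7 kb (chr11:65430279-65430888), was in 8 lists, all but JUNB, and none of its pileups exceeded 14. The NFKB1 protein had 13 and 12, FOS 13 and 13, JUN 9 and 14, and STAT3 10 and 13 (the higher of 2 STAT3 peaks in non-transformed cells). The 20.4-kb site (chr11:65420082-65420719) held the NFKB1 protein at 7 in non-transformed cells alone and JUN at 9 and 9. The site at 31.5 kb (chr11:65431289-65431635) held the NFKB1 protein at 12 and STAT3 at 8, both in transformed cells alone.

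At RELB, which encodes the partner of the NFKB2 product, the highest STAT3 peaks ranked high in their own lists and AP-1 peaks were low. The 24.6-kb site (chr19:45504389-45504762) was in 6 lists, with a STAT3 pileup of 55 and 42 and an NFKB1 protein pileup of 20 and 28, and in transformed cells their summits were 13 bp apart. FOS was at 8 in non-transformed cells alone and JUN at 14 in transformed cells alone. The neighbouring site at 25.2 kb (chr19:45505013-45505575), also in 6 lists, had the NFKB1 protein at 7 and 14, FOS at 11 and 7, and JUN at 8 and STAT3 at 6 in transformed cells alone. The site at 62.7 kb (chr19:45542559-45542873) was a STAT3 site, with a pileup of 55 and 62 (fold enrichment 34.8 and 42.0), together with JUN at 7 in transformed cells, and no NFKB1 protein peak was listed in either state.

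At REL, 2 AP-1 sites were in 8 lists each. The site at 96.2 kb (chr2:61176051-61176405) had a FOS pileup of 42 and 62, a JUN pileup of 17 and 45, and a JUNB pileup of 16 and 43. The NFKB1 protein (13) and STAT3 (26) were listed there in transformed cells alone. The site at 32.2 kb (chr2:61112013-61113015) had 36 and 41 for FOS, 8 and 31 for JUN, and 14 and 21 for JUNB, with the NFKB1 protein at 6 and STAT3 at 7 in transformed cells alone. Its summits span 702 bp, so it joins several adjacent peaks. The site at 9.1 kb (chr2:61088710-61089277), in 4 lists, had FOS at 14 and 24, and STAT3 at 11 and JUNB at 8 in transformed cells alone.

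To compare the states, each peak was matched to the nearest peak of the same protein whose window overlapped by at least 1 bp. Of the 25 NFKB1 protein peaks of transformed cells at the loci, 15 had no listed peak in non-transformed cells, against 83.8% over the whole list, a lower share at the loci (15 of 25). These 15 peaks had pileups of 4 to 14, with a median of 9.0, and the 10 peaks present in both states 7 to 73, with a median of 25 reads. Scaled to the depth of the non-transformed library, 8 of the 15 would reach the lowest pileup of that list, 4 reads, and 0 would reach 2 times that value, so at this depth their absence from the list is not a measured absence of binding. In the other direction, 2 of the 12 NFKB1 protein peaks of non-transformed cells had no peak in transformed cells (10.7% over the list). Scaled to the depth of the transformed library, both would reach 2 times its lowest pileup of 4 reads. Their own pileups were 5 and 7.

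For STAT3, 18 of the 23 peaks of transformed cells had no peak in non-transformed cells (78.3%, against 61.6% over the list). Here the non-transformed library was the deeper one, and all 18 would reach its lowest pileup of 5 reads, 10 of them 2 times that value. The highest of the 18 are those at 159.1 kb of NFKB1 (30) and 96.2 kb of REL (26), followed by a peak at 139.6 kb of NFKB1 (18). Of the 8 STAT3 peaks of non-transformed cells, 2 were not listed in transformed cells (29.1% over the list), and both are at NFKB1, with pileups of 6 and 10. Scaled to the depth of the transformed library, both would reach its lowest pileup of 4 reads, and 1 of them 2 times that value.

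Among the AP-1 proteins, 25 of 48 FOS peaks (39.3% over the list), 25 of 42 JUN peaks (49.3%), and 16 of 24 JUNB peaks (44.8%) of transformed cells had no peak in non-transformed cells. In each case the share at the loci, 52.1%, 59.5%, and 66.7%, was above that of the whole list, a difference that was not tested. Peaks of transformed cells at the loci were also lower than their lists. Median fold enrichment was 7.27 against 8.28 for FOS, 6.02 against 7.18 for JUN, and 7.27 against 8.55 for JUNB. Of the peaks without a match, scaled to the depth of the non-transformed library, 25 FOS, 25 JUN, and 15 JUNB peaks would reach its lowest pileup. Only 8, 6, and 5 would reach 2 times that value. The highest of these FOS peaks, named after their values were seen, were at the NFKB1 locus, with pileups of 46, 37, 29, and 28 at 95.7, 125.4, 9.0, and 139.6 kb. At 95.7 kb all 5 proteins were listed in transformed cells (14 for the NFKB1 protein, 10 for STAT3, 46 for FOS, 14 for JUN, and 24 for JUNB) and none in non-transformed cells, the one site at the loci with that pattern. The peaks of non-transformed cells that had no peak in transformed cells were 4 of 27 for FOS (17% over the list), 5 of 23 for JUN (21%), and 6 of 14 for JUNB (25.6%), and their pileups were 6 to 12. Scaled to the depth of the transformed library, all of these would reach its lowest pileup. Of them, 3 FOS, 1 JUN, and 6 JUNB peaks would reach 2 times that value.

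Heights were compared at the 63 matched peaks, as the pileup per 1000000 filtered reads in transformed cells over that in non-transformed cells. Each ratio has an exact binomial 95% interval that covers counting error only, not the spread between cultures. The interval held 1 for 50 of the 63 peaks, was above 1 for 11, and below 1 for 2. Divided by the median ratio of the factor over all its matched peaks, the interval was above 1 for 8 and below 1 for 4. The share of such intervals over all matched peaks was not computed. Over the whole genome the median ratio was 1.00 for the NFKB1 protein, 0.937 for FOS, 0.957 for JUNB, 1.29 for JUN, and 1.68 for STAT3 (0.75 on the log2 scale, and 0.37 for JUN), and the locus values are read against these. The fragment length used for the pileup also differed between states, most for STAT3, with 150 bp in non-transformed and 119 bp in transformed cells, and its part in the ratios was not tested.

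**Figure D4:**
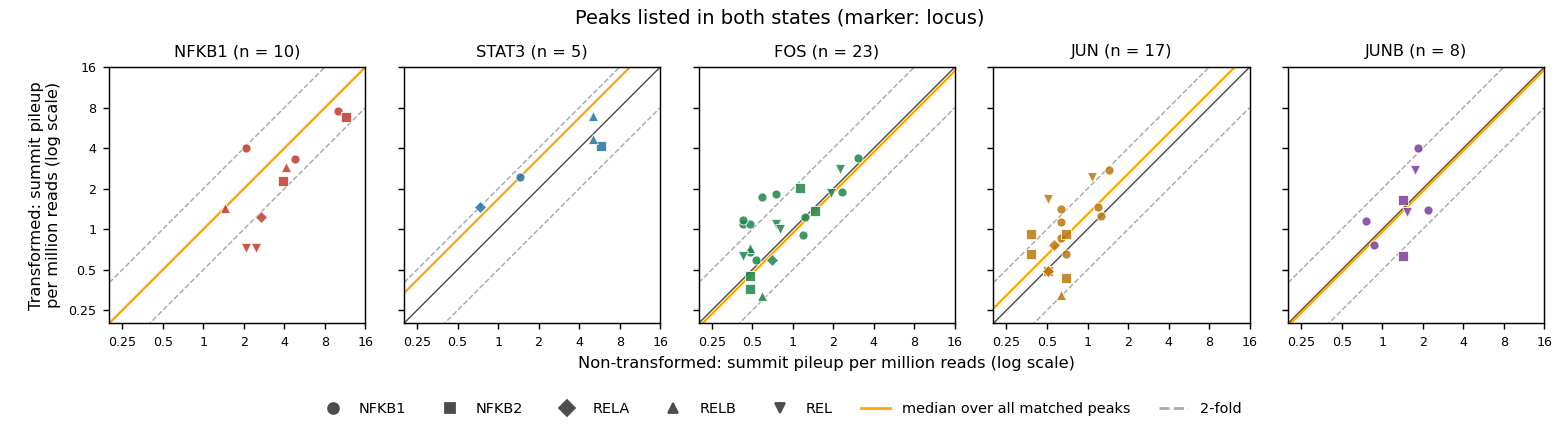
Summit pileup per 1000000 filtered reads in non-transformed (x axis) and transformed cells (y axis), both on log scales, for the peaks listed in both states, 1 panel per ChIP target with the marker giving the locus. The solid dark line marks equality, the dashed lines a 2-fold difference, and the orange line the median ratio over all matched peaks of the target, and most NFKB1 protein points lie below that line and most FOS points on or above it.

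Among the 10 matched NFKB1 protein peaks, 0 were at least 2 times higher in transformed cells (9.13% over all matched peaks) and 3 at least 2 times lower (7.06%). The median ratio at the loci was 0.648. The 3 lower peaks were both REL peaks, with 0.292 (interval 0.097 to 0.804, pileup 12 and 7) and 0.35 (0.113 to 1.02, pileup 10 and 7), and the RELA peak, with 0.462 (0.193 to 1.10). The main peak at NFKB2 had a ratio of 0.60 (0.413 to 0.874), and together with the first REL peak it makes the 2 intervals below 1. The highest ratio, 1.95 (0.956 to 4.38), was at 159.1 kb of NFKB1, the site with the highest FOS peak of the loci. Against a ratio of 1, the scales differ. Per 1000000 reads, 8 of the 10 ratios were below 1, whereas the ratio of fold enrichments was below 1 for 5, and at NFKB2 it was 0.997. Over all matched NFKB1 protein peaks the median ratio of fold enrichments was 1.63, and 8 of the 10 ratios at the loci were below it, the same number as below the median per 1000000 reads. For the main peak at NFKB1 the ratio was 0.760 (0.521 to 1.12) per 1000000 reads and 1.21 by fold enrichment. Fold enrichment was close to (pileup + 1)/(background + 1) for 68.2% to 87.0% of each list's peaks (within 0.1 on the log2 scale). For the NFKB1 protein the share was 87.0% in non-transformed and 77.8% in transformed cells. By that formula fold enrichment rises with depth, and the library of transformed cells was the deeper one. The part of depth in the difference between the scales was not tested.

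Of the 5 matched STAT3 peaks, 0 were at least 2 times higher (38% over all matched peaks) and 0 at least 2 times lower (1.47%) in transformed cells. Their ratios ran from 0.705 (0.457 to 1.07) at NFKB2 to 1.98 (0.761 to 5.51) at RELA, where the pileup was 8 and 13. Divided by the genome-wide median of the factor, the NFKB2 ratio was 0.420 (0.273 to 0.640) and that of the 24.6-kb site of RELB 0.555 (0.363 to 0.845), so these peaks stood below the general shift of STAT3 by more than counting error. The STAT3 site at 62.7 kb of RELB had a ratio of 1.37 (0.940 to 2.01), or 0.820 relative to the median.

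FOS had 23 matched peaks, of which 5 were at least 2 times higher in transformed cells (8.43% over all matched peaks) and 0 at least 2 times lower (6.72%). All 5 are at the NFKB1 locus, which holds 11 of the 23. The largest ratio was 2.91 (1.46 to 6.32), at 144.1 kb, where the pileup was 11 and 38, and the site at 56.5 kb with the highest NFKB1 protein peak had 2.41 (1.28 to 4.79). The strongest FOS peak, at 159.1 kb, had 1.11 (0.776 to 1.59). The lowest FOS ratio was 0.537 (0.176 to 1.52), at 25.2 kb of RELB. The 5 FOS peaks that were at least 2 times higher had pileups of 8 to 14 in non-transformed cells, below those of the highest FOS peaks of the loci.

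JUN had 4 of 17 matched peaks at least 2 times higher (14.6% over all matched peaks) and 0 at least 2 times lower (1.28%). The ratio was largest at 32.2 kb of REL, 3.33 (1.497 to 8.38, pileup 8 and 31), and 2.27 (1.28 to 4.24) at 96.2 kb of REL, and lowest at 62.2 kb of RELB, 0.515 (0.154 to 1.57, pileup 10 and 6). Relative to the median of JUN, the interval of the first REL site alone was above 1 (2.58, 1.16 to 6.51). JUNB had 1 of 8 matched peaks at least 2 times higher (7.74%), with 2.16 (1.25 to 3.94) at 159.1 kb of NFKB1, and 1 at least 2 times lower (7.47%), with 0.448 (0.176 to 1.11) at 26.7 kb of NFKB2. For JUNB and STAT3 the library names carry different replicate letters in the 2 states, and the part of this in the ratios was not tested.

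The overlap of the 5 proteins was then counted at the peaks of the NFKB1 protein and of STAT3. In transformed cells, 20 of 25 NFKB1 protein peaks had an AP-1 peak (86.1% over the list) and 14 of 25 a STAT3 peak (62.1%). In non-transformed cells, 9 of 12 had an AP-1 peak (86%) and 3 of 12 a STAT3 peak (61%). From the side of STAT3, 14 of 23 peaks of transformed cells had an NFKB1 protein peak (57.1%) and 22 of 23 an AP-1 peak (87.8%), and of the 8 peaks of non-transformed cells 4 had an NFKB1 protein peak (18.9%) and 6 an AP-1 peak (80.3%). With 8 to 25 peaks per count, 1 peak moves a share by 4 percentage points or more, and the differences were not tested. In transformed cells the summit of the NFKB1 protein was at a median distance of 25.5 bp from that of FOS (16 peaks, 27.0 bp over the list), 26.5 bp from JUN (18 peaks, 27.0 bp), 26.0 bp from JUNB (13 peaks, 27.0 bp), and 51.0 bp from STAT3 (14 peaks, 31.0 bp).

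Within the loci, the peaks of the NFKB1 protein that were present in both states and those listed in transformed cells alone lay beside FOS peaks of different height. Of the 10 peaks in both states, 7 had a FOS peak in transformed cells, with a median of 0.453 per 1000000 reads, and 5 of these were at or below 0.589. Of the 15 peaks of transformed cells alone, 9 had a FOS peak, with a median of 1.86 and a lowest value of 1.18. Over the whole list the order was the opposite, with 1.95 at the 10562 peaks in both states and 1.45 at the 48134 of transformed cells alone that had a FOS peak. The exceptions at the loci are the NFKB1 sites at 56.5 and 159.1 kb, where an NFKB1 protein peak of both states met a FOS peak of 1.81 and 3.40. FOS was singled out after the values of all partners were seen. For JUN the medians at the loci were equal, 0.759 in both groups (7 and 11 peaks). For JUNB they were 1.14 in both states and 1.27 in transformed cells alone (3 and 10 peaks). STAT3 went the other way, with 1.62 and 1.00 (6 and 8 peaks). The main peaks at NFKB1 and NFKB2 are both in the highest 1 percent of the list by fold enrichment, and neither had an overlapping STAT3 window, whereas 95.5% of the 739 peaks in that range did. These values were compared after they were seen, at few peaks, and were not tested.

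**Figure D5:**
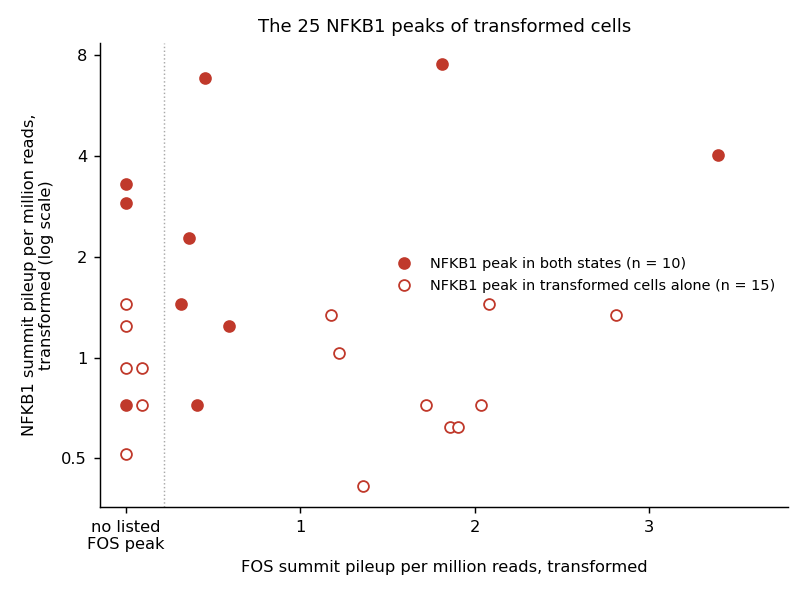
Summit pileup of the NFKB1 protein (y axis, log scale) against that of the FOS peak at the same place (x axis), both per 1000000 filtered reads in transformed cells, for the 25 NFKB1 protein peaks at the loci, with peaks that have no listed FOS peak at the left and equal values drawn side by side. Filled points are the 10 peaks present in both states and open points the 15 of transformed cells alone, which all have FOS values above 1 where a FOS peak is listed.

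Sites with peaks of all 5 proteins were counted last. In non-transformed cells 0 of 46 sites at the loci had all 5 (3.68% of the 162858 sites of the genome), and in transformed cells 8 of 67 did (17.4% of 211617). Among the 15 sites described above, those at 159.1 kb of NFKB1, at 18.9 and 26.7 kb of NFKB2, and at 32.2 and 96.2 kb of REL had all 5 proteins in transformed cells, and the other 3 are at the NFKB1 locus, at 95.7, 144.1, and 161.9 kb. RELA and RELB had none, since JUNB was not listed there. The share at the loci, 11.9%, was below that of the genome, and this difference was not tested.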

How the data were processed

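The authors aligned 36-bp reads to hg19 with Bowtie and called peaks in each of the 10 libraries separately with MACS (2.0.10.20131216), per the labels and the file headers. The headers give no control library, at most 1 read per position, a q-value cutoff of 0.05, and a local background over 1000000 bp. In the deposited lists, the pileup is the signal (coverage of extended reads at the summit), not scaled by depth, and fold enrichment is a ratio to the local background. The deposited significance columns are −log10 of p- and q-values.

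Pileups were divided by the filtered reads of the library and multiplied by 1000000. Peak windows were the summit with 150 bp on each side, peaks matched at an overlap of at least 1 bp, and overlapping windows of all lists merged into sites. Intervals are exact binomial 95% intervals of 2 pileups and cover counting error only. With 1 library per protein and state, no test was made. Sites were named by a rule: the 3 sites per locus in most lists (ties by summed pileup per 1000000), the highest NFKB1 protein peak per locus and state, and the highest and lowest matched ratio per protein. The loci, genes, and measures were chosen with earlier results of these data known. The reference at hand is GRCh38, so peaks were not placed on genes, no peak sequence was read, and the inhibitor and kinase genes of the pathway were not counted. Peaks off chromosomes 1 to 22 and X were left out. Computations used Python 3.11.15, numpy 2.4.6, pandas 2.3.3, and scipy 1.17.1, and figures matplotlib 3.10.9. The matching and interval code was tested on simulated data. The simulated peaks had far more reads than those at the loci and lay far apart, so low pileups and close peaks were not covered.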

Additional observations from a re-analysis of the deposited data

How the results depend on the processing

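Matching by whole peaks or by windows of 50 bp on each side left all 17 counts these settings were run on within 1.5 times of their value (peaks with no peak in the other state, matched peaks higher or lower, and sites with all 5 proteins). A −log10 q threshold moved 15 of 17 counts and a pileup threshold 14 of 15, here including the peak totals. With a −log10 q of at least 10, the peaks at the loci numbered 9 and 13 (non-transformed and transformed) for the NFKB1 protein, 4 and 13 for STAT3, 11 and 24 for FOS, 4 and 13 for JUN, and 6 and 11 for JUNB. Peaks of transformed cells with no peak in the other state then numbered 5 for the NFKB1 protein, 8 for STAT3, 6 for FOS, 3 for JUN, and 5 for JUNB, and 2 sites had all 5 proteins in transformed cells. With at least 2 pileup reads per 1000000, the peaks were 9 and 6 for the NFKB1 protein, the reverse of the order of 12 and 25 without a threshold, 3 and 7 for STAT3, 3 and 4 for FOS, 0 and 2 for JUN, and 1 and 2 for JUNB. Those with no peak in the other state were then 0 for the NFKB1 protein, 3 for STAT3, 1 for FOS, 0 for JUN, and 0 for JUNB. By fold enrichment in place of pileup per 1000000, 1 NFKB1 protein peak was at least 2 times higher and 0 lower in transformed cells, and for JUNB 2 and 0. Divided by the median ratio of the factor, 1 STAT3 peak and 2 JUN peaks were at least 2 times lower and 1 JUN peak higher. At a fold of 1.5, the numbers higher and lower were 1 and 5 for the NFKB1 protein, 7 and 2 for JUN, and 2 and 2 for JUNB, with 2 STAT3 peaks higher and 1 FOS peak lower. The shares over all peaks were computed for the main setting only, so the counts at the other settings describe the loci alone. The stricter thresholds keep fewer peaks and the lower fold counts more by construction, and for the other settings the cause was not tested. No paired analysis was possible because each protein has 1 library per state, and for the same reason no replicate could be left out.

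Depth limits what can be said of the NFKB1 protein: its non-transformed library is the shallowest, and the lowest pileup it lists is 4 reads. Without an input control or replicates, neither copy number, accessibility, nor the spread between cultures was measured.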

Other observations

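Every locus held a pair of NFKB1 protein peaks close together in transformed cells, a pattern noticed in the data and not tested. The closest pair was 311 bp apart at REL, 618 bp at RELB, 701 bp at RELA, 1042 bp at NFKB1, and 1115 bp at NFKB2. Of the 25 NFKB1 protein peaks at the loci, 11 had a neighbour within 1500 bp, and over the whole list 29.9% of 73822 did. The pair at RELB was listed in both states, with ratios of 0.70 and 1.00 per 1000000 reads, as was the pair at REL (0.35 and 0.292) and that at NFKB2 (0.60 and 0.579). At RELA and NFKB1 the second peak of the pair was listed in transformed cells alone, with pileups of 12 and 9.

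Outside the sites held by most lists, the NFKB1 locus had a group of peaks between 32.0 and 39.0 kb. The NFKB1 protein peak at 32.5 kb, the third highest of that protein at this locus in transformed cells, had a pileup of 23 in non-transformed and 32 in transformed cells and a ratio of 0.696 (exact 95% interval 0.395 to 1.25). FOS was not listed there in either state, JUN had a pileup of 10 and STAT3 of 7 in transformed cells alone. At 84.2 kb of the same locus an NFKB1 protein peak with a pileup of 14 in transformed cells had no peak of the other 4 proteins. STAT3 had its highest peak outside the named sites of this locus at 152.1 kb, with a pileup of 16 and 22, where no NFKB1 protein peak was listed.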
